A study of Homo sapiens with 30 samples.

Results

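MDM2, MDM4, ZMAT3, SESN1, BTG2, GDF15, TP53INP1, FAS and RRM2B are genes of the p53 response, and their transcripts were followed across prostate cancer cells given an androgen, an antiandrogen or a bromodomain inhibitor. The genes were chosen by symbol, and all 9 were found among the 23710 gene symbols of the count tables and the 23616 symbols of the FPKM tables. The 30 libraries fell into 10 conditions of 3 replicates each, all sequenced as strand-specific poly(A) RNA. V16D is a castration-resistant line derived from LNCaP, and MR49F is an enzalutamide-resistant line of the same lineage. The authors maintained MR49F cells, but not V16D cells, in medium with 10 µM enzalutamide. Vehicle in MR49F cells thus follows earlier exposure to the drug, and when it was removed is not stated. Line and earlier exposure cannot be told apart in comparisons of the lines or of their responses. In full serum (10% fetal bovine serum), V16D and MR49F cells each received vehicle (0.1% DMSO) or 10 µM enzalutamide (MDV3100), an antiandrogen, for 24 h. In charcoal-stripped serum, which lacks most steroid hormones, MR49F cells were kept for 72 h and then received vehicle, 1 nM dihydrotestosterone (DHT), 10 µM enzalutamide, 500 nM JQ-1, DHT with JQ-1 or enzalutamide with JQ-1 for 24 h. JQ-1 displaces BET bromodomain proteins from acetylated chromatin. Each line is a single culture derived from LNCaP tumours grown in mice. The authors describe the replicates of a condition as biological, with wells combined for each. They do not say whether the replicates came from separate passages or days. The p-values therefore measure the spread between these samples of a line, and not between independently derived lines.

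p53 is a transcription factor that is kept scarce in unstressed cells and accumulates after DNA damage, loss of nucleotides or ribosomal stress. It binds response elements near its target genes and raises their transcription, and the products arrest the cell cycle, repair DNA, lower mTOR signalling or start cell death. MDM2 and MDM4 close a negative loop: MDM2 is the ubiquitin ligase that marks p53 for degradation, and MDM4 is its relative that masks the p53 activation domain. Many of these genes also answer to other factors, among them FOXO proteins and ATF4.

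Levels are given as FPKM (reads per length of transcript and per depth of the library), which the authors estimated per RefSeq transcript and which were summed here per gene, so that genes of different length can be compared. In full serum the tests were made on read counts with edgeR's quasi-likelihood test. The reads assigned to genes numbered 13170504 to 21154962 per library in full serum, but only 982130 to 1813262 in stripped serum, where they were 5.13 to 7.664% of the reads in the table. Genes whose symbol marks them as antisense took 0.231 to 0.297% of the reads on genes in full serum and 1.22 to 1.82% in stripped serum. The corresponding shares of summed FPKM were 0.227 to 0.363% and 0.375 to 0.478%. For stripped serum the lead values are therefore FPKM, tested with limma on log2(FPKM + 1), a scale that understates the change of genes with low levels, and the count test is given beside them. Whether the reads in stripped serum were counted on the strand opposite to the transcripts was not tested, so a count there may hold reads from the other strand, and it is not a second measurement of the same transcript of equal standing. Full and stripped serum were set side by side without a test, since the tables differ in this way. A gene is called where the Benjamini-Hochberg adjusted p over all genes tested was below 0.05. The first vehicle replicate of MR49F cells in full serum stood apart from its 2 partners, with a chi-square per degree of freedom over genes of 10.1 and 11.7 against 2.25 between the partners, and results that rest on it are given with and without it.

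Markers of luminal prostate cells were detected in every condition, at levels that varied between treatments. HOXB13 lay between 54.6 and 166 FPKM and FOLH1 between 101 and 439 FPKM. Of the stromal and blood markers, COL1A2, DCN and PTPRC did not exceed 0.0884 FPKM in any library, while COL1A1 reached 1.77 FPKM. The androgen-responsive gene KLK3, which encodes prostate-specific antigen, fell from 509 to 132.5 FPKM with enzalutamide in V16D cells and was at 971 FPKM with vehicle and 941 FPKM with enzalutamide in MR49F cells. In stripped serum it stood at 283 FPKM with vehicle, 1258 FPKM with DHT, 800 FPKM with enzalutamide and 7.01 FPKM with JQ-1. HEXIM1, a gene that rises when BET proteins are inhibited, went from 13.5 to 86.9 FPKM with JQ-1 in stripped serum.

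**Figure D1:**
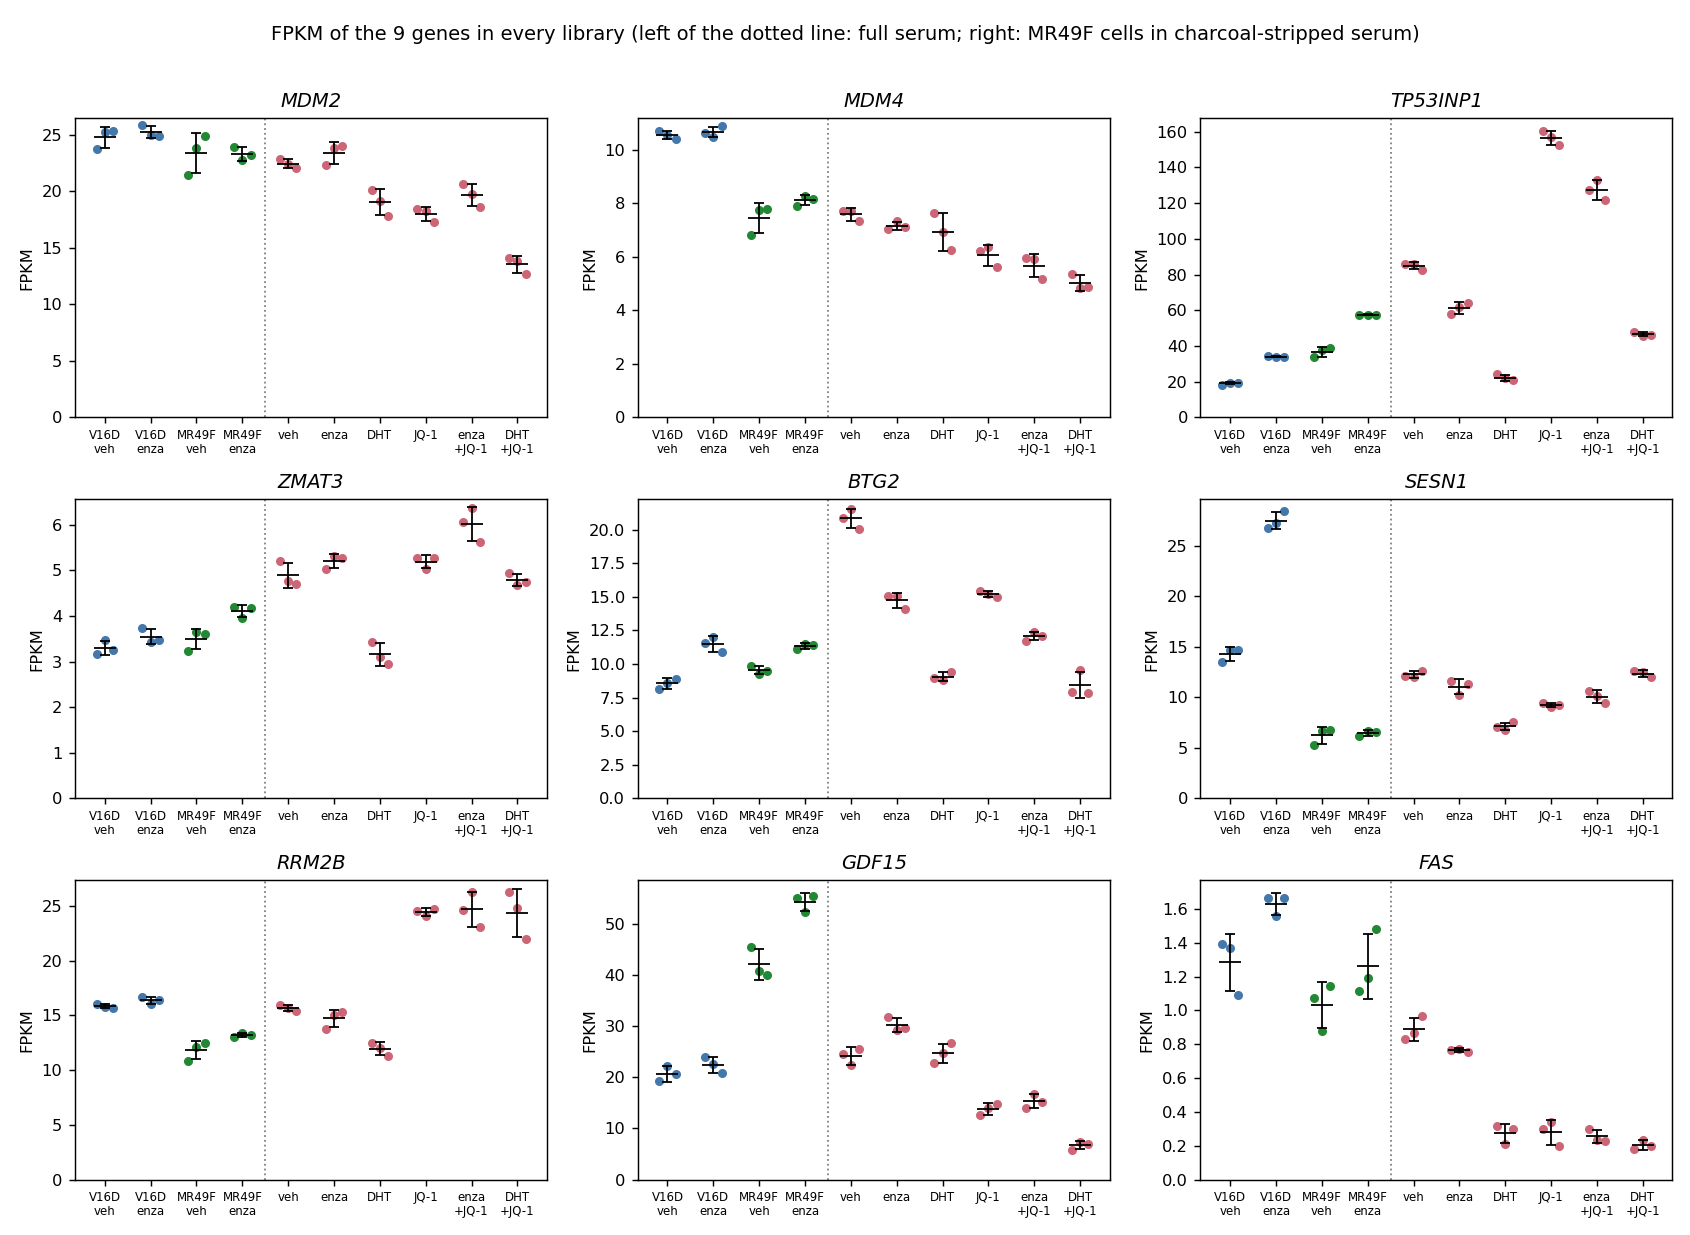
FPKM of each of the 9 genes (vertical axes, linear, from 0) in the 10 conditions (horizontal axes), with a point for each of 3 replicates, a line at their mean and bars for the SD, full serum left and stripped serum right of the dotted line. TP53INP1 runs from a mean of 22.2 FPKM with DHT to 157 FPKM with JQ-1 in stripped serum, while MDM2 stays between 23.3 and 25.3 FPKM over the means in full serum.

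In full serum, enzalutamide raised TP53INP1, SESN1 and BTG2 in V16D cells, and it raised TP53INP1, GDF15 and ZMAT3 in MR49F cells. TP53INP1 passed the test in both lines, and no member was called lower in either. In V16D cells 3 of the 9 members were called, beside 37.5% of 14079 genes tested, a share near that background. Without V16D vehicle replicate 2, ZMAT3 and FAS were added and 5 were called. In MR49F cells 3 of 9 were called, beside 8.48% of 13927 genes. The estimates in MR49F cells were smaller for ZMAT3 and GDF15 than for TP53INP1, and the calls of both were lost when vehicle replicate 2 or any of the 3 enzalutamide replicates was left out, which left TP53INP1 alone. Without the vehicle replicate that stood apart, 4 members were called, BTG2 being added at a log2 fold change of 0.26.

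Between the lines with vehicle, GDF15 and TP53INP1 were higher in MR49F than in V16D cells, and SESN1, MDM4 and RRM2B were lower. These 5 of 9 stood beside 63.7% of 14013 genes called. Leaving out the vehicle replicate that stood apart gave 7 called, with ZMAT3 at 0.17 and FAS at -0.38 on the log2 scale added. The response to enzalutamide differed between the lines for SESN1 and TP53INP1, both being raised less in MR49F cells, and these 2 of 9 stood beside 6.95% of 14471 genes. Without that replicate GDF15 also passed, at a log2 difference of 0.31.

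In stripped serum, the members called under DHT were all lower, and those called under JQ-1 lay in both directions. By FPKM, DHT lowered 6 of 8 tested members (MDM2, ZMAT3, SESN1, BTG2, TP53INP1 and RRM2B), beside 72.1% of 12180 genes called, of which 43.2% of genes tested were lower. The count test called ZMAT3, BTG2 and TP53INP1 lower, 3 of 8 beside 37.5% of 11004 genes. JQ-1 lowered MDM2, MDM4, SESN1, BTG2 and GDF15 and raised TP53INP1 and RRM2B by FPKM, 7 of 8 beside 75.1% of 12203 genes. The counts called GDF15 lower and TP53INP1 and RRM2B higher, 3 of 8 beside 46.6% of 11332 genes. The median log2 change of the tested members under DHT was -0.44 by FPKM, against -0.08 over all genes tested. FAS did not reach 1 FPKM in 3 libraries of any comparison in stripped serum and was not tested there.

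Enzalutamide alone in stripped serum lowered BTG2 and TP53INP1 and raised GDF15 by FPKM, 3 of 8 beside 38.7% of 12178 genes. The counts called BTG2 alone, 1 of 8 beside 7.26% of 11131 genes, and this call was lost without any of the 3 vehicle replicates or without enzalutamide replicate 2. DHT set directly against enzalutamide lowered 7 of 8 members by FPKM, MDM4 being the exception, beside 57.4% of 12029 genes. That comparison gave 4 of 8 by counts, beside 19.4% of 10916 genes, and 2 of 8 without enzalutamide replicate 1, DHT replicate 2 or DHT replicate 3. Among all genes called in it by FPKM, 36.4% were higher with DHT, and 48.1% when the FPKM were rescaled between libraries.

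JQ-1 added to enzalutamide moved 7 of 8 members by FPKM, beside 75.7% of 12148 genes, and 4 of 8 by counts, beside 45.1% of 10863 genes. JQ-1 added to DHT likewise moved 7 of 8 by FPKM, beside 78.8% of 11856 genes, and 6 of 8 by counts, beside 54.7% of 10779 genes. Whether JQ-1 acted differently in the presence of a ligand was tested as an interaction. With DHT, 5 of 8 members passed by FPKM (ZMAT3, SESN1, BTG2, GDF15 and RRM2B), beside 48% of 12469 genes, and SESN1 and GDF15, 2 of 8, passed by counts, beside 12.3% of 11572 genes. With enzalutamide, SESN1 passed by FPKM, 1 of 8 beside 19.2% of 12454 genes. No member passed by counts in edgeR, beside 0.895% of 11625 genes, and 0 members had an unadjusted p below 0.05 there or passed in DESeq2. Whether the share of members called differed from that of all genes was not tested in any of these comparisons.

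**Figure D2:**
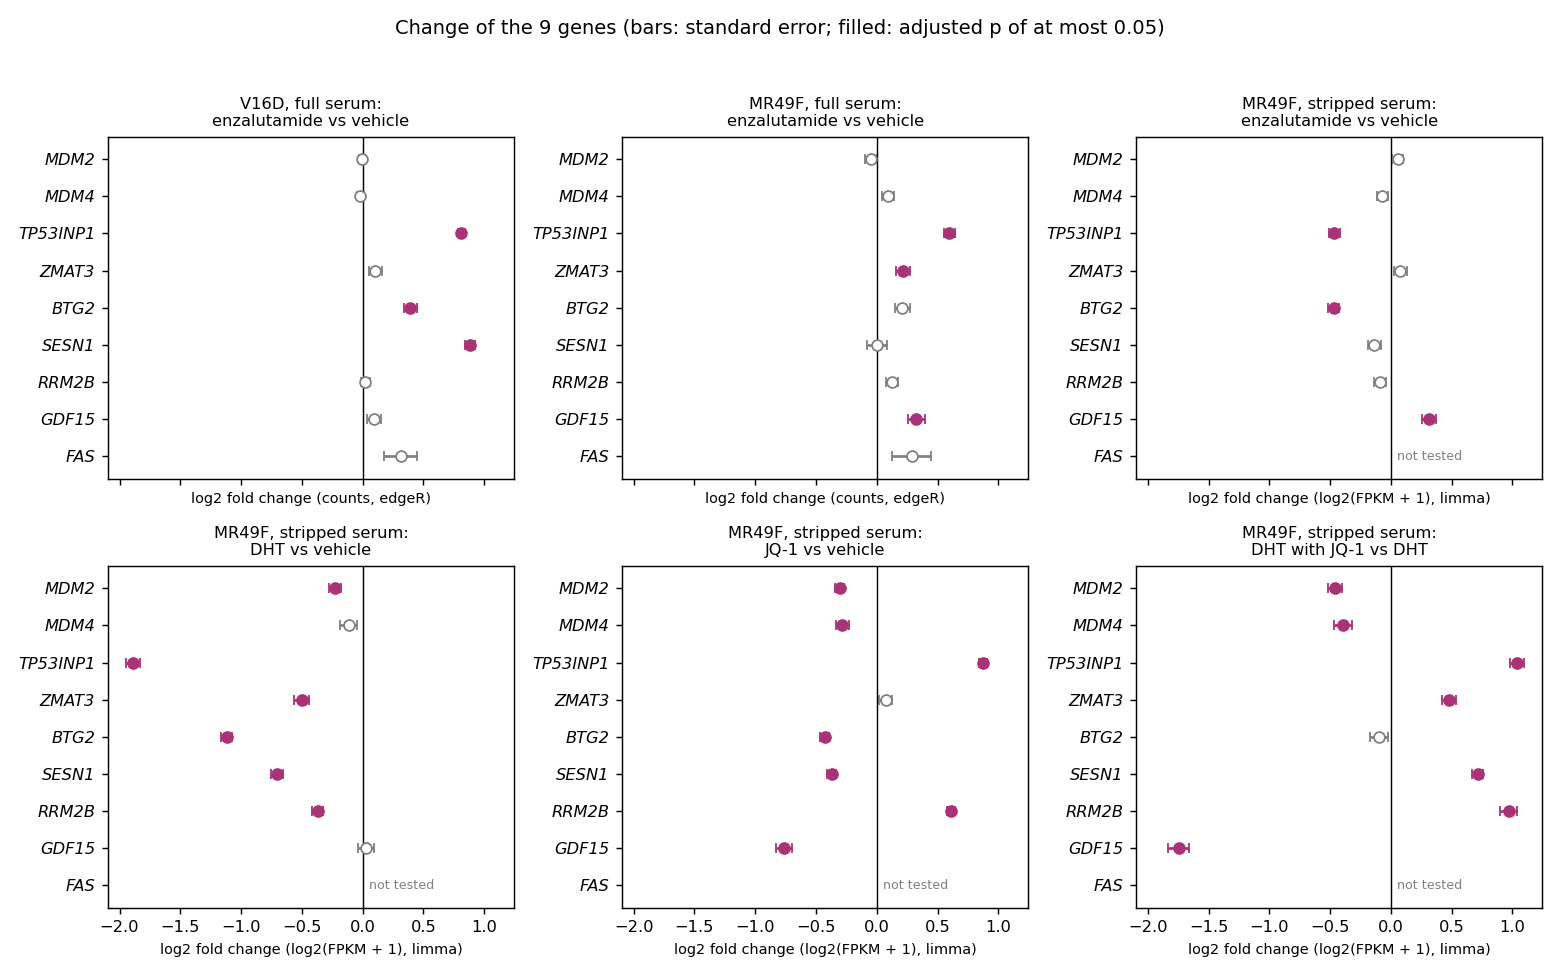
Log2 fold change (horizontal axes) of each of the 9 genes (vertical axes) in 6 comparisons, from counts in full serum and from log2(FPKM + 1) in stripped serum, with bars for the standard error and filled points for called genes. TP53INP1 lies at -1.89 with DHT and 0.88 with JQ-1, and GDF15 lies at -1.75 where JQ-1 was added to DHT.

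Of the paired regulators of p53, neither was called with enzalutamide in full serum, and both fell with JQ-1 in stripped serum by FPKM. By counts, JQ-1 alone gave -0.09 for MDM2 and -0.17 for MDM4 on the log2 scale, with overlapping groups, and neither passed. MDM2 (GRCh37 chr12:69201957-69239324, plus strand) was at 23.7, 25.3 and 25.4 FPKM in V16D cells with vehicle and at 25.8, 25.0 and 24.9 FPKM with enzalutamide. It was at 21.5, 23.9 and 24.9 FPKM in MR49F cells with vehicle and at 23.9, 22.8 and 23.3 FPKM with enzalutamide. Vehicle and enzalutamide overlapped within each line, and the log2 changes with enzalutamide were -0.01 in V16D and -0.05 in MR49F cells. In stripped serum MDM2 went from 22.8, 22.4 and 22.1 FPKM with vehicle to 18.4, 18.3 and 17.3 FPKM with JQ-1, without overlap. DHT with JQ-1 gave the lowest level, 14.1, 13.8 and 12.7 FPKM, below all 3 libraries with DHT alone (20.1, 19.2 and 17.9 FPKM). The log2 change for JQ-1 added to DHT was -0.46 ± 0.056 (SE) by FPKM and -0.32 by counts.

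MDM4 (chr1:204485507-204527248, plus strand) was lower in MR49F than in V16D cells with vehicle, at 6.82, 7.74 and 7.77 FPKM against 10.7, 10.6 and 10.4 FPKM. The log2 difference by counts was -0.53 (edgeR adjusted p = 3.3e-06), and the groups did not overlap. In stripped serum MDM4 fell from 7.58 FPKM with vehicle to 6.06 FPKM with JQ-1 and from 6.94 FPKM with DHT to 5.03 FPKM with DHT and JQ-1 (means of 3). The log2 changes were -0.28 and -0.39 by FPKM, and the counts gave -0.17 and -0.25, which did not pass. DHT and enzalutamide gave MDM4 estimates of -0.12 and -0.07 that did not pass. No neighbouring pair of the 6 stripped-serum conditions, ordered by mean MDM4, was free of overlap.

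TP53INP1 (chr8:95938200-95961606, minus strand) had the widest fold range of condition means of the 9 genes in stripped serum. In full serum SESN1 had the widest, 4.4 times from lowest to highest, against 3.02 times for TP53INP1. The product of TP53INP1 promotes p53 phosphorylation by kinases such as HIPK2 and also takes part in autophagy. With vehicle in full serum it was at 18.4, 19.4 and 19.3 FPKM in V16D cells and at 33.8, 37.6 and 39.1 FPKM in MR49F cells. Enzalutamide brought it to 34.5, 33.7 and 34.0 FPKM in V16D cells and to 57.1, 57.5 and 57.5 FPKM in MR49F cells. Every treated library was above every vehicle library of its line. The log2 change was 0.81 ± 0.028 (SE; edgeR adjusted p = 1.34e-122) in V16D and 0.60 ± 0.046 (adjusted p = 2.46e-05) in MR49F cells. The difference between the lines in this response was -0.22 ± 0.053 (adjusted p = 0.0109), and it did not pass in limma on FPKM, where it was -0.18.

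In stripped serum TP53INP1 had 6 levels, and no neighbouring pair in their order overlapped. They were 160.4, 156.9 and 152.6 FPKM with JQ-1, 127.5, 133.1 and 121.9 FPKM with enzalutamide and JQ-1, and 86.0, 86.1 and 82.6 FPKM with vehicle. Below these came 57.8, 61.9 and 64.2 FPKM with enzalutamide, 48.0, 45.8 and 46.2 FPKM with DHT and JQ-1, and 24.2, 21.9 and 20.7 FPKM with DHT. The highest mean was thus 7.04 times the lowest. DHT lowered TP53INP1 by a log2 change of -1.89 ± 0.056 (SE; limma adjusted p = 1.72e-08), and the counts gave -1.69. JQ-1 raised it by 0.88 over vehicle, by 1.04 over enzalutamide and by 1.04 over DHT by FPKM, against 1.11, 1.17 and 1.16 by counts. Neither interaction with JQ-1 passed for this gene. By FPKM, every MR49F library with enzalutamide lay above the vehicle libraries in full serum and below them in stripped serum. The log2 change in stripped serum was -0.46 by FPKM, which passed, and -0.28 by counts, which did not (edgeR adjusted p = 0.11). The difference between the 2 sera was not tested. The 225 exonic bases that TP53INP1 shares with genes on the other strand lie in NDUFAF6, whose level went from 9.25 FPKM with vehicle to 5.28 FPKM with JQ-1.

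The 2 RefSeq transcripts of TP53INP1 had similar levels in stripped serum, while NM_001135733 held most of the gene's FPKM in full serum. These transcript levels were not tested. NM_033285 held 38.8 to 56.7% of the gene's FPKM in stripped serum, with means of 38.2 FPKM with vehicle, 9.66 FPKM with DHT and 85.2 FPKM with JQ-1. NM_001135733 had means of 46.7, 12.6 and 71.5 FPKM in the same conditions. In V16D cells in full serum NM_001135733 held at least 91.4% of the gene's FPKM.

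SESN1 (chr6:109305512-109416049, minus strand) encodes sestrin 1, which limits mTORC1 activity and oxidative stress. Its response to enzalutamide differed more between the lines than that of TP53INP1, the other member whose interaction passed. In V16D cells it went from 13.5, 14.7 and 14.7 FPKM to 26.8, 27.2 and 28.5 FPKM, a log2 change of 0.89 ± 0.040 (SE; edgeR adjusted p = 7.5e-84). In MR49F cells it was at 5.28, 6.71 and 6.78 FPKM with vehicle and 6.16, 6.67 and 6.60 FPKM with enzalutamide. Those MR49F groups overlapped, and the log2 estimate was 0.0026. The difference in response was -0.89 ± 0.089 (adjusted p = 6.39e-07), and -0.97 without the vehicle replicate that stood apart. With vehicle the lines differed by -1.15 ± 0.078 (adjusted p = 1.67e-07).

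In stripped serum DHT lowered SESN1 from 12.1, 12.1 and 12.7 FPKM to 7.09, 6.80 and 7.53 FPKM, and JQ-1 lowered it to 9.46, 9.10 and 9.21 FPKM. DHT with JQ-1 gave 12.59, 12.48 and 12 FPKM, which overlapped vehicle. By FPKM JQ-1 thus changed SESN1 by -0.37 without DHT and by 0.71 with it, an interaction of 1.09 ± 0.056 (SE; limma adjusted p = 3.77e-08). The counts gave -0.08 for JQ-1 alone and -0.50 for DHT alone, and neither passed. JQ-1 added to DHT gave 0.84 by counts, which passed. By counts the interaction was 0.93 (edgeR adjusted p = 0.0412), and it was lost without any DHT replicate, DHT with JQ-1 replicate 1, vehicle replicate 2 or 3, or JQ-1 replicate 2 or 3.

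The main SESN1 transcripts behaved differently under these treatments. NM_001199933 had means of 9.03 FPKM with vehicle, 4.44 FPKM with DHT, 4.73 FPKM with JQ-1 and 4.6 FPKM with both. NM_014454 was at 3.02, 3.28 and 2.69 FPKM with vehicle and at 7.75, 7.86 and 7.0 FPKM with DHT and JQ-1, without overlap. With JQ-1 alone NM_014454 was at 4.89, 3.58 and 4.42 FPKM. In V16D cells the rise with enzalutamide lay mostly in NM_001199933, from 10.3 to 22.5 FPKM, while NM_014454 went from 3.81 to 4.76 FPKM. Transcript levels were estimated from short reads that the transcripts share, and they were not tested.

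**Figure D3:**
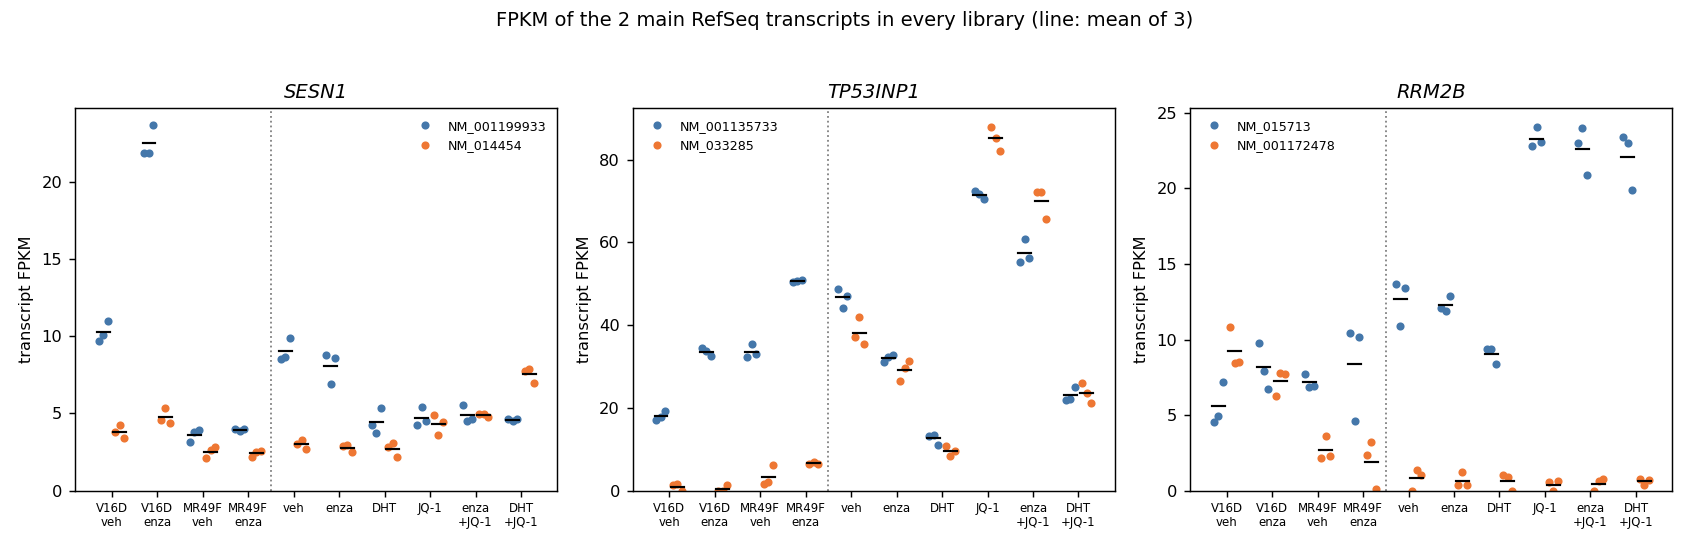
FPKM of the 2 main RefSeq transcripts of SESN1, TP53INP1 and RRM2B (vertical axes, linear, from 0) in the 10 conditions (horizontal axes), with a point for each replicate and a line at the mean, full serum left and stripped serum right of the dotted line. NM_014454 of SESN1 reaches a mean of 7.54 FPKM with DHT and JQ-1, where NM_001199933 has 4.6 FPKM.

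The RefSeq promoter table for GRCh38.p14 lists several start sites for SESN1, and 2 of the 250-base windows upstream of them are shown because the gene's transcripts responded differently. The windows are not paired with transcripts in the table. Both are on the minus strand and read 5′ to 3′ toward the start, and capitals mark a match to the p53 half-site consensus, searched on both strands.

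SESN1 chr6:109008989-109009238: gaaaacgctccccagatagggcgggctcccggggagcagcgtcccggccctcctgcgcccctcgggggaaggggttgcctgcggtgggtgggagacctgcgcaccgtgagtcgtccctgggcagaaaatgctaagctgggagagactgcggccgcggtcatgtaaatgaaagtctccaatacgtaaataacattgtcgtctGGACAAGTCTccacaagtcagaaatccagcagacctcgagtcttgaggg

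SESN1 chr6:109094847-109095096: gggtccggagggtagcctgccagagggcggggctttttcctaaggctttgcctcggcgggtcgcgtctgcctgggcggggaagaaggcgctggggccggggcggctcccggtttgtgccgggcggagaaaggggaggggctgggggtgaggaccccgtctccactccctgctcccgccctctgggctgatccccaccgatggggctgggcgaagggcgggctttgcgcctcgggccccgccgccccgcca

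The match in the first window begins 49 bases upstream of the listed start, and the second window has no such letters. In the table's full windows, which run from 250 bases before to 50 after each start, a half-site match stood in 6.63% of 35116 windows of all genes and in 2 of the 15 windows found for 7 members, the other being in FAS. Such a match is a description of the sequence and was not tied to binding here.

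BTG2 (chr1:203274619-203278730, plus strand) is an antiproliferative gene that slows entry into S phase. In V16D cells it rose from 8.16, 8.58 and 8.92 FPKM to 11.54, 12.02 and 10.9 FPKM with enzalutamide, a log2 change of 0.39 ± 0.054 (SE; edgeR adjusted p = 8.74e-12). In MR49F cells it was at 9.89, 9.29 and 9.47 FPKM with vehicle and at 11.1, 11.5 and 11.5 FPKM with enzalutamide. Those groups did not overlap, though the log2 change of 0.21 had an edgeR adjusted p of 0.0606. In stripped serum BTG2 stood at 20.9, 21.5 and 20.1 FPKM with vehicle, and each treatment lowered it. Enzalutamide gave 15.1, 15.1 and 14.1 FPKM, JQ-1 gave 15.47, 15.18 and 14.97 FPKM, and DHT gave 8.94, 8.78 and 9.41 FPKM. The log2 change for DHT was -1.12 by FPKM and -1.26 by counts. Adding JQ-1 to DHT left 7.92, 9.53 and 7.82 FPKM, a range that overlaps that of DHT alone. In MR49F cells BTG2 was thus higher with enzalutamide in every library in full serum and lower in every library in stripped serum.

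ZMAT3 (chr3:178677909-178790003, minus strand), a zinc finger RNA-binding protein, was at 3.17 to 4.21 FPKM in full serum. It rose in MR49F cells from 3.24, 3.66 and 3.60 FPKM to 4.21, 3.96 and 4.17 FPKM with enzalutamide, a log2 change of 0.21 ± 0.059 (SE; edgeR adjusted p = 0.0496). Over the alternatives that adjusted p ranged from 0.0142 to 0.211. In stripped serum DHT lowered ZMAT3 from 5.21, 4.76 and 4.70 FPKM to 3.43, 3.11 and 2.94 FPKM, and DHT with JQ-1 held it at 4.93, 4.69 and 4.75 FPKM. DHT changed it by -0.50 by FPKM and -0.77 by counts, and JQ-1 added to DHT changed it by 0.48 and 0.95. JQ-1 without DHT gave 0.07 by FPKM, and the interaction by FPKM was 0.41 ± 0.073 (SE). By counts the interaction was 0.76 and did not pass (edgeR adjusted p = 0.0823).

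RRM2B (chr8:103216730-103251189, minus strand) encodes the p53-inducible subunit of ribonucleotide reductase, which supplies deoxynucleotides for DNA repair. It was lower in MR49F than in V16D cells with vehicle, at 10.9, 12.1 and 12.5 FPKM against 16.04, 15.77 and 15.71 FPKM (log2 difference by counts -0.41, edgeR adjusted p = 2.27e-05). In stripped serum the 3 conditions with JQ-1 stood together at 22.0 to 26.3 FPKM, above every library without it, which lay between 11.3 and 15.99 FPKM. JQ-1 raised RRM2B by 0.61 over vehicle, 0.71 over enzalutamide and 0.97 over DHT by FPKM, and by 1.11, 0.86 and 1.44 by counts. DHT lowered it by a log2 change of -0.37 by FPKM. With enzalutamide the readouts differed in direction, at -0.09 by FPKM and 0.20 by counts, and neither passed. Transcript NM_015713 carried the rise, from a mean of 12.7 to 23.3 FPKM with JQ-1.

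GDF15 (chr19:18485541-18499986, plus strand) encodes a secreted stress cytokine of the TGF-β superfamily. With vehicle in full serum it was at 45.5, 40.8 and 39.9 FPKM in MR49F cells and at 19.2, 22.2 and 20.6 FPKM in V16D cells. The log2 difference by counts was 1.03 ± 0.080 (SE; edgeR adjusted p = 4.97e-07). Enzalutamide in MR49F cells gave 55.0, 52.3 and 55.5 FPKM, a log2 change of 0.33 (adjusted p = 0.0149), while in V16D cells the groups overlapped. In stripped serum GDF15 was at 24.6, 22.3 and 25.6 FPKM with vehicle and 22.9, 24.7 and 26.6 FPKM with DHT, which overlapped. Enzalutamide raised it to 31.8, 29.2 and 29.7 FPKM.

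JQ-1 lowered GDF15 in every setting of stripped serum. The levels were 12.65, 13.99 and 14.84 FPKM with JQ-1 alone, 14.02, 16.78 and 15.18 FPKM with enzalutamide, and 5.79, 7.31 and 6.93 FPKM with DHT. The log2 change with JQ-1 was -0.76 without ligand, -0.94 with enzalutamide and -1.75 ± 0.083 (SE; limma adjusted p = 3.61e-07) with DHT by FPKM. The fall was larger with DHT by an interaction of -0.98 (limma adjusted p = 3.73e-05) by FPKM and -1.15 (edgeR adjusted p = 0.00475) by counts. DHT alone gave an estimate of 0.03 that did not pass.

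FAS (chr10:90750414-90775542, plus strand), the death receptor at the cell surface, was the member with the lowest level. In V16D cells it was at 1.39, 1.37 and 1.09 FPKM with vehicle and 1.67, 1.56 and 1.67 FPKM with enzalutamide. Those groups did not overlap, and the log2 change of 0.31 had an edgeR adjusted p of 0.0531. In MR49F cells it was at 1.07, 0.881 and 1.15 FPKM with vehicle and 1.114, 1.195 and 1.48 FPKM with enzalutamide, which overlapped. In stripped serum FAS was at 0.834, 0.867 and 0.966 FPKM with vehicle and between 0.178 and 0.340 FPKM in the 4 conditions with DHT or JQ-1. The counts there were 0 to 6 reads per library, so no difference in FAS counts was detectable at this depth. FAS shares 1297 exonic bases with genes on the other strand.

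The FAS window that holds the other half-site match is shown for comparison with SESN1 (GRCh38.p14, plus strand). Capitals mark the half-site, 122 bases upstream of the listed start, and the hexamer AGAACA, 26 bases upstream, which stood in 14.8% of all full windows.

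FAS chr10:88991181-88991430: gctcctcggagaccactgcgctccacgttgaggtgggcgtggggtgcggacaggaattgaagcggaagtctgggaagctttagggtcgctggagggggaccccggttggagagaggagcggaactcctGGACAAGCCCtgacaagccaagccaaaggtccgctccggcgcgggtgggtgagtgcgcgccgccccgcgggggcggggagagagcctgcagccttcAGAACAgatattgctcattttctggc

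The 30 other p53 target genes listed for comparison did not move as a block. In full serum 10 of 28 tested were called with enzalutamide in V16D cells, 6 higher and 4 lower, beside 37.5% of all genes, with PLK3 at 0.61 and SUSD6 at 0.49 against PLK2 at -0.9988 and TNFRSF10B at -0.46 on the log2 scale. In MR49F cells 4 of 29 were called, 1 higher and 3 lower, beside 8.48% of all genes. Between the lines 17 of 28 were called, beside 63.7% of all genes, 11 being higher in MR49F cells, led by the cell cycle inhibitor CDKN1A at 1.90. In stripped serum DHT lowered 17 and raised 6 of 26 by FPKM, with a list median of -0.38, beside 72.1% of all genes called and 43.2% lower. By counts it lowered 6 and raised 4 of 22, beside 37.5%. JQ-1 raised 12 and lowered 9 of 26 by FPKM, beside 75.1% called, with a median of 0.05, GADD45A being at 1.58 and AEN at -1.05, and by counts it raised 9 and lowered 4 of 23, beside 46.6%. JQ-1 added to DHT raised 12 and lowered 7 of 24 by FPKM, beside 78.8%, and raised 11 and lowered 4 of 21 by counts, beside 54.7%. The interaction of DHT with JQ-1 passed by FPKM for 15 of 26, beside 48%, 13 of them with a positive estimate, but by counts for 1 of 23, beside 12.3%.

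**Figure D4:**
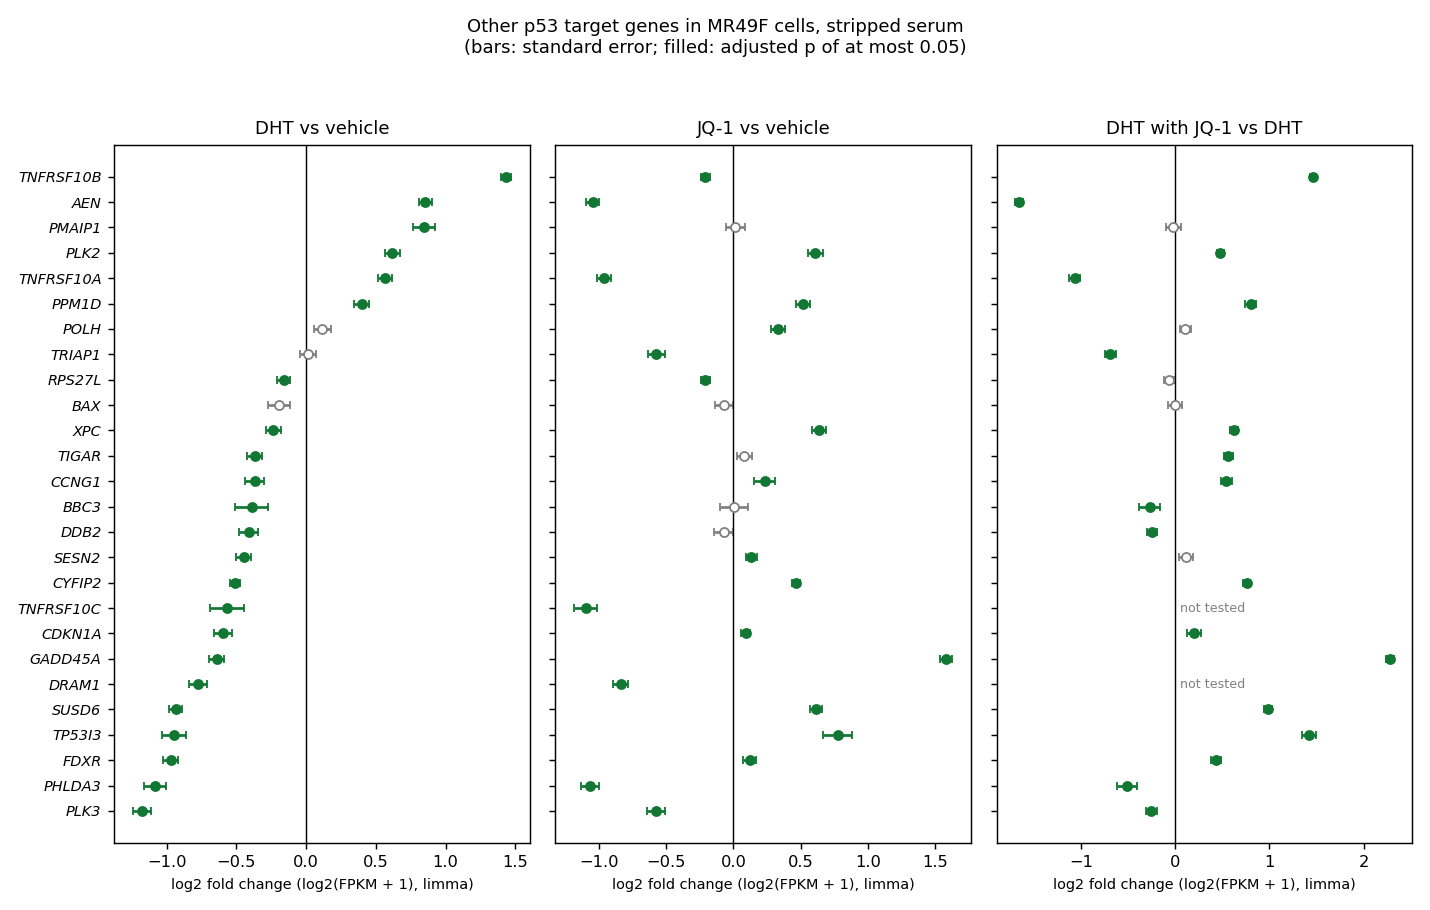
Log2 fold change of log2(FPKM + 1) (horizontal axes) of the other p53 target genes that were tested (vertical axis) for DHT against vehicle, JQ-1 against vehicle and DHT with JQ-1 against DHT in stripped serum, with bars for the standard error and filled points for called genes. Under DHT 17 of 26 are called lower and 6 higher, and under JQ-1 9 are lower and 12 higher.

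When JQ-1 was added to DHT, 5 of the 6 listed regulators of p53 were called by FPKM, all lower, beside 78.8% of all genes. By counts 3 of 5 tested were called, all lower, beside 54.7%. CHEK2, a kinase that acts upstream of p53, changed by -1.01 by FPKM in that comparison. DHT alone raised 3 and lowered 1 of 6 by FPKM, beside 72.1%, and raised 3 of 6 by counts, beside 37.5%. Enzalutamide alone in stripped serum raised 4 of 6 by FPKM, beside 38.7%, and 0 were called by counts, beside 7.26%. JQ-1 alone raised 1 and lowered 5 of 6 by FPKM, beside 75.1%. By counts it raised 1 and lowered 1 of 5, beside 46.6%. JQ-1 added to enzalutamide lowered 4 of 6 by FPKM, beside 75.7%, and 4 of 6 by counts, beside 45.1%. In full serum HIPK2 and USP7 were called lower with enzalutamide in both lines, HIPK2 by -0.82 in V16D and by -0.34 in MR49F cells. These 2 of 6 stood beside 37.5% of all genes called in V16D and 8.48% in MR49F cells.

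In stripped serum, the genes whose pattern over the 6 stripped-serum conditions was most like that of TP53INP1 were ST3GAL1, USP54 and SLFN5, with root mean square differences of 0.198, 0.212 and 0.233 between centred log2 levels. For GDF15 the first of them were KLHL21 and PSAT1, at 0.151 and 0.189. The search covered 12002 genes and 18 libraries, and it describes likeness of pattern only.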

How the data were processed

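RNA was sequenced with a strand-specific poly(A) kit as single-end reads. The authors aligned the reads to GRCh37 with TopHat2 2.0.9, counted them per gene with HTSeq and estimated FPKM per RefSeq transcript with Cufflinks 2.1.1, and they deposited raw counts and FPKM values for each sample. Which strand setting HTSeq was run with is not given in the sources used here. The counts were tested with edgeR 4.0.16 (quasi-likelihood test, TMM scaling, low genes removed by filterByExpr at a count of 10 and a total of 15) in R 4.3.3. FPKM were summed per gene and tested with limma 3.58.1 on log2(FPKM + 1) for genes with at least 1 FPKM in 3 libraries. DESeq2 1.42.0 was an alternative. All p-values were adjusted over all genes tested, and the tests were two-sided. Each comparison was fitted on its own groups, and interactions on 4 groups.

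The members and the gene lists (other p53 targets, p53 regulators, ATF4 and CHOP stress genes, treatment checks, luminal, stromal and blood markers) were chosen with earlier results of these data known. All members were named in every comparison. From the other lists, called genes with the largest absolute change were named, at most 3 in each direction per comparison. Some items of these lists are not reported here. Scripts were tested on simulated data. All pairs of replicates differed by more than sampling noise, so none was merged. Library sizes and tests used only reads assigned to genes, which held 72.97 to 77.813% of the table in full serum and 5.13 to 7.664% in stripped serum. The alternatives were DESeq2, its size factors, other filters and pseudocounts, rescaled FPKM, a replicate block, a joint fit of all groups, and leaving out each replicate. Promoter windows came from RefSeq, GRCh38.p14, and 7 of 9 members matched; their coordinates were not combined with the files' build. Figures were drawn with matplotlib 3.10.9.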

Additional observations from a re-analysis of the deposited data

Results flagged for a closer look

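The response to enzalutamide in full serum differed between the lines for SESN1, with an interaction of -0.8924 on the log2 scale (MR49F minus V16D, edgeR adjusted p = 6.39e-07). TP53INP1 also differed, by -0.2229 (edgeR adjusted p = 0.0109).

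By FPKM, 3 of the 9 members had opposite estimates with enzalutamide in the 2 sera in MR49F cells, without overlap in either. For these, every enzalutamide library of full serum was above its vehicle group, and every one of stripped serum was below it. The share of all genes that do so was not determined, so 3 of 9 cannot be set against a background. In stripped serum the change on the log2(FPKM + 1) scale was -0.4708 for BTG2, against 0.2269 in full serum. TP53INP1 changed by -0.4646, against 0.6287 in full serum. RRM2B changed by -0.0887, against 0.1533 in full serum, and neither RRM2B value passed its test. By counts RRM2B in stripped serum changed by 0.20, the direction of full serum, without overlap and without passing (edgeR adjusted p = 0.542). The difference between sera was not tested. Serum, the 72 h without hormones and the 2 separate sets of libraries cannot be told apart in it. Those sets also differed in the share of reads on genes and in summed FPKM.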

How the results depend on the processing

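Over 952 values of single members under an alternative setting, 915 stayed on their side of the threshold, 21 lost their call and 16 gained one. Leaving out single replicates, 1166 of 1230 stayed, 44 lost a call and 20 gained one. No called value changed sign, 0 of 444 and 0 of 534, while estimates that had not passed did so in 13 of 508 and 51 of 696. Fitting all groups of full serum together gave 5 members called with enzalutamide in MR49F cells in place of 3, and limma on FPKM gave 1 in place of 2 for the interaction of line and enzalutamide. In stripped serum, DESeq2 called 0 members by counts with enzalutamide, 1 for DHT against enzalutamide and 1 for the interaction of DHT with JQ-1, in place of 1, 4 and 2, and without a filter on low counts the first and last of these were 2 and 1. Rescaled FPKM, chosen after seeing the data, added BTG2 and TP53INP1 to SESN1 in the interaction of enzalutamide with JQ-1, 3 in place of 1. Replicate numbers did not pair the samples, since no comparison had all correlations of same-numbered deviations above 0.1 (lowest -0.27, highest 0.296). With the replicate block, 2 members in place of 1 were called by counts with enzalutamide in stripped serum, 7 in place of 5 by FPKM in the interaction of DHT with JQ-1, and 2 in place of 3 with enzalutamide in MR49F cells in full serum.

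Leaving out each replicate, the members called ranged from 3 to 5 for enzalutamide in V16D, 1 to 4 in MR49F cells, 5 to 7 between lines and 2 to 3 for their interaction. In stripped serum, by counts and then by FPKM, they ranged from 0 to 1 and 3 to 4 for enzalutamide, 3 to 3 and 6 to 7 for DHT, 3 to 3 and 7 to 7 for JQ-1, 2 to 4 and 7 to 7 for DHT against enzalutamide, 3 to 4 and 6 to 8 for JQ-1 added to enzalutamide, and 5 to 6 and 7 to 8 for JQ-1 added to DHT. The interactions ranged from 0 to 0 and 0 to 2 with enzalutamide and from 1 to 3 and 5 to 6 with DHT. The FPKM call of SESN1 in the former was lost without vehicle replicate 1, enzalutamide replicate 2, JQ-1 replicate 2 or 3, or enzalutamide with JQ-1 replicate 1 or 2, and 2 members were called without replicate 3 of enzalutamide or of enzalutamide with JQ-1. The low number of reads on genes in stripped serum limits the count test there, FAS above all, and whether those reads were counted on the opposite strand was not tested.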

Other observations

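GDF15 is known to answer to the integrated stress response as well as to p53, and the 6 genes listed for ATF4 and CHOP, the transcription factors of that response, were measured beside it. In stripped serum all 6 were called higher by FPKM with enzalutamide, with CHAC1 at 0.73 and ATF4 at 0.60 on the log2 scale, beside 38.7% of all genes called and 19.3% higher. By counts 2 of 6 were called, both higher, beside 7.26% of all genes. With JQ-1 added to DHT 3 rose and 3 fell by FPKM, beside 78.8% of all genes called, and by counts 2 rose and 4 fell, beside 54.7%. By FPKM, TRIB3 changed by -2.07, CHAC1 by -2.05 and ATF4 by -1.01, while ATF3 changed by 1.52. GDF15 changed by 0.31 and -1.75 by FPKM in these comparisons. With DHT alone 5 of the 6 were called higher and 1 lower by FPKM, beside 72.1% of all genes called. By counts 4 of 6 were called, all higher, beside 37.5%. GDF15 gave 0.03 by FPKM and 0.29 by counts with DHT, and neither passed. With enzalutamide in MR49F cells in full serum 0 of the 6 were called by counts, beside 8.48% of all genes, while GDF15 was called at 0.33. Between the lines with vehicle 5 of 6 were called higher in MR49F cells and 1 lower, beside 63.7%, with GDF15 at 1.03. With enzalutamide in V16D cells 1 was called higher and 3 lower, beside 37.5%, and GDF15 did not pass. JQ-1 alone raised 3 and lowered 3 by FPKM, beside 75.1%, and raised 2 and lowered 3 by counts, beside 46.6%. JQ-1 added to enzalutamide gave the same numbers, beside 75.7% and 45.1%. GDF15 was called lower by both readouts in both. The part of one in the other was not tested.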
